A study of Homo sapiens with 6 samples.

Results

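The ADAMTS proteases (a disintegrin and metalloproteinase with thrombospondin motifs) are secreted zinc metalloproteinases of the extracellular matrix. The 10 members described here are ADAMTS1, ADAMTS2, ADAMTS4, ADAMTS5, ADAMTS6, ADAMTS7, ADAMTS10, ADAMTS12, ADAMTS14 and ADAMTS15, taken by gene symbol from a table of 23355 genes, and each of them had an entry. The cells were HFL-1, a fibroblast line from human fetal lung. They were transfected with a non-targeting siRNA (siNTC) or with 1 of 2 siRNAs against TAZ (siTAZ #1 and siTAZ #2) using Lipofectamine RNAiMAX. No other agent or allele is given in the labels for any group. Total RNA was collected at 48 h and read on the Ion Proton platform, with 2 libraries for each siRNA and 6 in all. TAZ, encoded by WWTR1, is a transcriptional co-activator that binds DNA through TEAD factors. The methods describe transfection in duplicate in this single line, so the p-values measure the spread between duplicate transfections and not between cell lines or donors.

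ADAMTS enzymes are made with a prodomain that furin-type convertases remove, a catalytic domain, and thrombospondin repeats that anchor the enzyme in the matrix. ADAMTS1, ADAMTS4, ADAMTS5 and ADAMTS15 cleave the large proteoglycans versican and aggrecan, whereas ADAMTS2 and ADAMTS14 remove the amino-terminal propeptide of fibrillar procollagens. ADAMTS7 and ADAMTS12 carry a mucin domain and cleave cartilage oligomeric matrix protein (COMP), and ADAMTS6 and ADAMTS10 act on fibrillin microfibrils. In fibroblasts these activities can affect how much provisional versican matrix is cleared and how much mature collagen is laid down. Neither amount was measured here.

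The part of the coding sequence that makes all 10 proteins proteases is shown first, since it is what the members share whatever their substrate. It encodes the zinc-binding motif of the catalytic site over 33 bases, which cross an exon junction in every member. The sequences were read from GRCh37, the build the authors call hg19, along the canonical transcripts of GENCODE. Capitals mark the codons of the 3 zinc-binding histidines and of the catalytic glutamate.
ADAMTS1: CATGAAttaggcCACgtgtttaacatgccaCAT
ADAMTS4: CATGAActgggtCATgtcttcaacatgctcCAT
ADAMTS5: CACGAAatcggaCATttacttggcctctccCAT
ADAMTS15: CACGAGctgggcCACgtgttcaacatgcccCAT
ADAMTS2: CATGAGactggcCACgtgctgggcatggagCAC
ADAMTS14: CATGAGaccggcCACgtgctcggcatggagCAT
ADAMTS7: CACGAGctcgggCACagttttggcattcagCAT
ADAMTS12: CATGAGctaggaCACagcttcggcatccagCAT
ADAMTS6: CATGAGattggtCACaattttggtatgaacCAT
ADAMTS10: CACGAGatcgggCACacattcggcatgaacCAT
Likeness in this stretch followed the substrate groups in part. ADAMTS2 and ADAMTS14 shared 30 of 33 bases, and ADAMTS7 and ADAMTS12 shared 27. ADAMTS15 shared 27 bases with ADAMTS1 and 27 with ADAMTS4. ADAMTS10 shared 26 with ADAMTS6 and also 26 with ADAMTS7, which belongs to another group. ADAMTS5 shared 19 with each of ADAMTS1, ADAMTS4 and ADAMTS15, and more with ADAMTS10 (22), ADAMTS7 (20) and ADAMTS14 (20).

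Library totals lay between 15648055 and 32078188 counts. WWTR1 had 132 and 131 CPM (counts scaled to a common library size by TMM) with siNTC, 26.4 and 28.4 with siTAZ #1, and 46.1 and 43.1 with siTAZ #2. The siRNAs gave WWTR1 log2 fold changes of -2.26 for siTAZ #1 (SE 0.10, FDR 0.00062) and -1.56 for siTAZ #2 (SE 0.10, FDR 0.00068), and the libraries of the 3 groups did not overlap. Here and below, FDR is the Benjamini-Hochberg adjusted p of edgeR's quasi-likelihood test over 14053 genes, and a gene is said to have risen or fallen where the FDR was under 0.05. The siTAZ #1 replicate 2 library has almost no counts for genes from RANGAP1 on chromosome 22 onward, X and Y included. None of the 10 members lies there, but 573 tested genes do, and they raised the common dispersion from 0.0164 to 0.0807. When those genes were left out, siTAZ #1 lowered 3 members and raised 3, and siTAZ #2 lowered 2 and raised 4, which are the counts given below. With that library left out of the fit, siTAZ #1 again lowered 3 and raised 3, and siTAZ #2 lowered 2 and raised 5, ADAMTS6 being the added one. All 10 fibroblast markers were present, with 42118 to 42418 CPM in all with siNTC, 31999 to 33481 with siTAZ #1 and 33959 to 35348 with siTAZ #2. Epithelial markers summed to between 2.17 and 3.52 CPM, endothelial markers to between 27.1 and 46.8, nearly all TEK, and immune markers to between 39.0 and 75.2, nearly all CD68. The sums of the endothelial and immune lists were lower with siTAZ #2 than in the other groups, and their part in the results was not tested.

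Each siRNA changed 6 of the ADAMTS genes. With siTAZ #1, ADAMTS4, ADAMTS5 and ADAMTS12 rose and ADAMTS2, ADAMTS6 and ADAMTS15 fell. With siTAZ #2, ADAMTS7, ADAMTS10, ADAMTS12 and ADAMTS14 rose and ADAMTS1 and ADAMTS15 fell. With siTAZ #1, 6 of the 10 members were called (20.6% of all genes tested), 3 of them lower (9.78% of all genes) and 3 higher (10.8%). With siTAZ #2, 6 members were called (28.5%), 2 of them lower (14.4%) and 4 higher (14.1%). ADAMTS15 was the 1 member lower with both siRNAs (3.74% of all genes) and ADAMTS12 the 1 member higher with both (5.49%). At FDR 0.05 in edgeR, 0 members were called in opposite directions (1.52%), and 1 (ADAMTS6) was at an unadjusted p under 0.05 with each siRNA. ADAMTS6 was called in opposite directions in 4 of the 18 alternatives run, namely the fits of only the 4 libraries compared, the fits without siTAZ #1 replicate 1 or replicate 2, and the exact test of edgeR without the genes of the nearly missing region. No other member was called so in any of the 18, DESeq2 and the exact test with all genes included. Both comparisons use the same siNTC libraries. The siRNAs were therefore also set against each other, and 8 of the 10 members differed (28.6% of all genes), 5 of them lower (13.4%) and 3 higher (15.2%) with siTAZ #1 than with siTAZ #2. Libraries of siTAZ #1 and siNTC did not overlap for 7 members (64.3% of all genes), 4 of them below siNTC (31.1%) and 3 above (33.2%). For siTAZ #2 and siNTC these were 8 members (71.4%), 2 below (35.5%) and 6 above (36%). For the 2 siRNAs they were 9 members (65.6%), with siTAZ #1 below in 6 (33%) and above in 3 (32.6%). Separations of this kind were also common among all genes. The median log2 fold change of the members was 0.18 with siTAZ #1 and 0.51 with siTAZ #2, and that of all genes 0.02 and 0.01. In RNA from whole cultures, fewer cells that express a gene and less of its RNA per cell cannot be told apart.

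**Figure D1:**
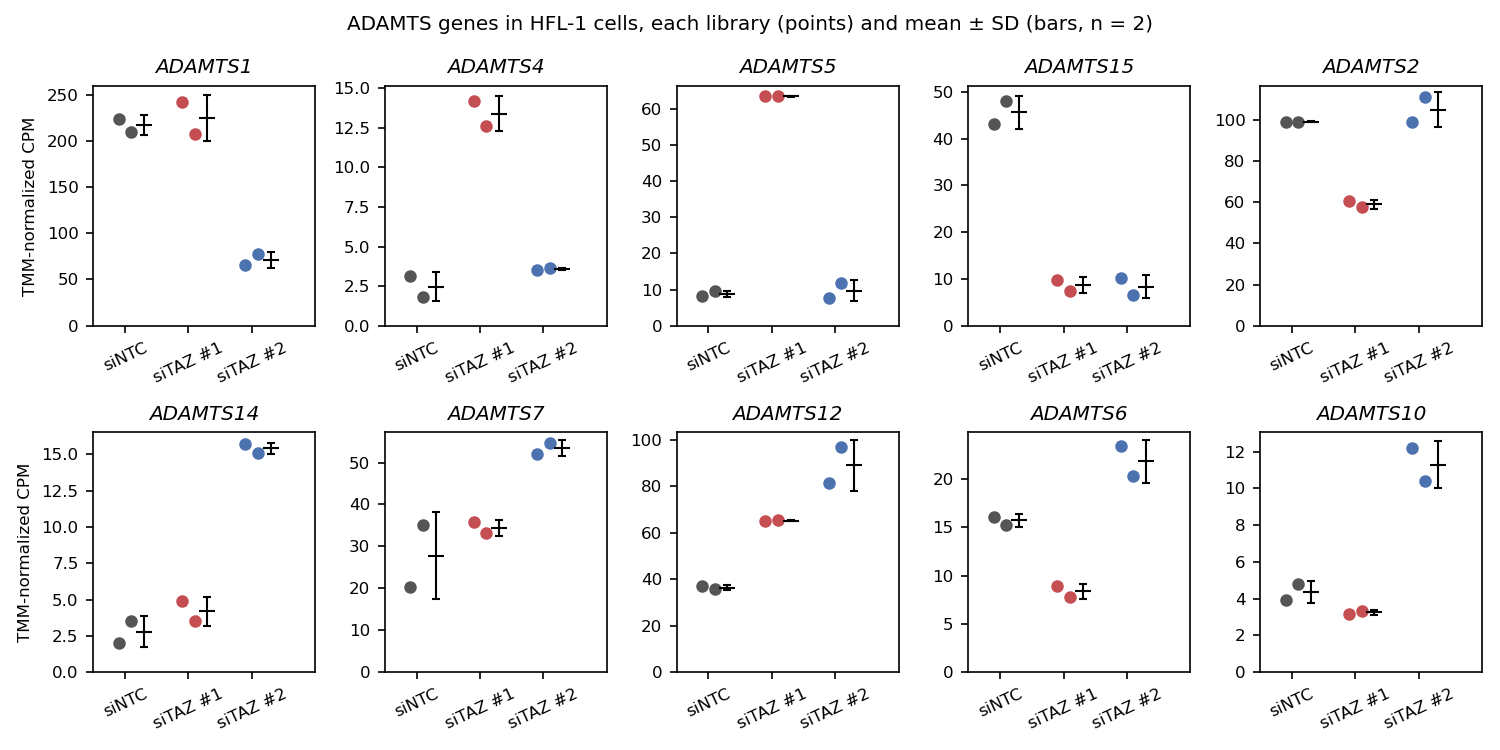
TMM-normalized CPM (vertical axes, from 0) of each ADAMTS gene in the 2 siNTC, 2 siTAZ #1 and 2 siTAZ #2 libraries, with points for libraries and bars for the mean ± SD. ADAMTS15 is low in all 4 siTAZ libraries, ADAMTS12 is high in all 4, ADAMTS4 and ADAMTS5 stand out with siTAZ #1 alone, and ADAMTS1 drops with siTAZ #2 alone.

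Among the proteoglycanases, the strongest rise was that of ADAMTS5, a main aggrecanase of cartilage, which lies on the minus strand at chr21:28290241-28339407. ADAMTS5 had 8.24 and 9.47 CPM with siNTC, 63.4 and 63.4 with siTAZ #1, and 7.57 and 11.8 with siTAZ #2. Both siTAZ #1 libraries were far above the other 4, and the siTAZ #2 libraries lay on either side of siNTC. It rose 7.16-fold with siTAZ #1 (log2 fold change 2.84, SE 0.24, FDR 0.0017), and the siTAZ #2 value was 0.13 (95% interval from -0.43 to 0.68, FDR 0.72). The direct difference between the siRNAs was 2.71 on the log2 scale (SE 0.24, FDR 0.0014).

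ADAMTS4, the other classical aggrecanase, on the minus strand at chr1:161154092-161168844, had fewer reads. Its counts were 49 and 29 with siNTC, 220 and 412 with siTAZ #1, and 76 and 60 with siTAZ #2, or 3.11 and 1.83, 14.2 and 12.6, and 3.55 and 3.62 CPM. The siTAZ #1 libraries were again apart from all others. ADAMTS4 rose 5.42-fold with siTAZ #1 (log2 fold change 2.44, SE 0.30, FDR 0.0050), while with siTAZ #2 the log2 fold change was 0.54 (95% interval from -0.19 to 1.27, FDR 0.23). Between the siRNAs the log2 difference was 1.90 (SE 0.29, FDR 0.0065), a call lost without siTAZ #2 replicate 1 (1.89, FDR 0.051) or replicate 2 (1.92, FDR 0.053).

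ADAMTS1, which cleaves versican and was the highest member per length with siNTC, lies beside ADAMTS5 on the same strand at chr21:28208074-28217728. It had 224 and 209 CPM with siNTC, 242 and 207 with siTAZ #1, and 65.2 and 77.1 with siTAZ #2. The siTAZ #1 libraries spanned those of siNTC, and both siTAZ #2 libraries were far below. ADAMTS1 fell by 1.61 on the log2 scale with siTAZ #2 (SE 0.13, FDR 0.00096), a 3.05-fold decrease, and the siTAZ #1 value was 0.05 (95% interval from -0.25 to 0.35, FDR 0.79). The direct difference was 1.66 (SE 0.13, FDR 0.0010). ADAMTS1 and ADAMTS5 are thus a neighbouring pair of which 1 gene changed with each siRNA.

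ADAMTS15, a proteoglycanase on the plus strand at chr11:130318540-130346540, was the member that fell with both siRNAs. It had 43.2 and 48.1 CPM with siNTC, 9.87 and 7.48 with siTAZ #1, and 10.1 and 6.58 with siTAZ #2. All 4 siTAZ libraries lay well below both siNTC libraries, and the siTAZ groups overlapped. ADAMTS15 fell 5.27-fold with siTAZ #1 (log2 fold change -2.40, SE 0.26, FDR 0.0036) and 5.46-fold with siTAZ #2 (-2.45, SE 0.26, FDR 0.0023). A direct comparison of the siRNAs gave 0.05 on the log2 scale, with a 95% interval from -0.57 to 0.67 (FDR 0.90). ADAMTS15 belongs to the genes that the study listed as lowered by both siRNAs, a list drawn up on these same libraries, so its fall here is not independent evidence.

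Of the procollagen N-propeptidases, ADAMTS2 was called with siTAZ #1 and ADAMTS14 with siTAZ #2. ADAMTS2, which processes procollagens I, II and III and lies on the minus strand at chr5:178537854-178772462, had 98.9 and 99.2 CPM with siNTC, 60.5 and 57.6 with siTAZ #1, and 98.8 and 111 with siTAZ #2. The siTAZ #1 libraries were below all others, and a siTAZ #2 library lay just under both siNTC libraries while the other was above them. ADAMTS2 fell by 0.75 on the log2 scale with siTAZ #1 (SE 0.09, FDR 0.0054), and the log2 fold change with siTAZ #2 was 0.08 (95% interval from -0.15 to 0.31, FDR 0.56). The fall missed the threshold in the exact test of edgeR (-0.76, FDR 0.10), though not once the genes of the nearly missing region were left out of that test (-0.77, FDR 1.1e-07). It also missed it without siNTC replicate 1 (-0.76, FDR 0.059) or siNTC replicate 2 (-0.75, FDR 0.059). The value with siTAZ #1 relative to siTAZ #2 was -0.83 (SE 0.09, FDR 0.0028). In the exact test it was -0.83 with an FDR of 0.055, and -0.84 with an FDR of 3.2e-07 without that region.

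ADAMTS14, the closest relative of ADAMTS2 in the stretch shown above, lies on the plus strand at chr10:72432262-72522197. Its counts were 32 and 56 with siNTC, 76 and 114 with siTAZ #1, and 335 and 250 with siTAZ #2, or 2.03 and 3.53, 4.90 and 3.50, and 15.7 and 15.1 CPM. The siTAZ #2 libraries stood above the other 4, and siTAZ #1 overlapped siNTC. ADAMTS14 rose 5.52-fold with siTAZ #2 (log2 fold change 2.46, SE 0.33, FDR 0.0046), and the siTAZ #1 value was 0.58 (95% interval from -0.23 to 1.39, FDR 0.26). The direct difference was -1.88 (SE 0.32, FDR 0.0094), a call lost without siTAZ #2 replicate 1 (-1.85, FDR 0.054) or replicate 2 (-1.89, FDR 0.056).

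ADAMTS12, one of the COMP-cleaving pair, lies on the minus strand at chr5:33523640-33892124 and was the member that rose with both siRNAs. It had 37.1 and 35.7 CPM with siNTC, 65.1 and 65.5 with siTAZ #1, and 81.3 and 96.8 with siTAZ #2. The 3 groups did not overlap, with siNTC lowest and siTAZ #2 highest. ADAMTS12 rose 1.79-fold with siTAZ #1 (log2 fold change 0.84, SE 0.12, FDR 0.0072) and 2.44-fold with siTAZ #2 (1.29, SE 0.12, FDR 0.0016). The siTAZ #1 call was lost in the exact test (0.83, FDR 0.14), but passed in that test without the nearly missing region (0.82, FDR 2.8e-07). It was also lost without siNTC replicate 1 (0.86, FDR 0.069) or siNTC replicate 2 (0.80, FDR 0.075). The siRNAs differed by -0.45 (SE 0.12, FDR 0.036), and that call was lost in 8 of 19 alternatives, the fits with a replicate block among them. The FDR was 0.076 in the fit of only the 4 libraries compared, 0.055 with no filter on low counts and 0.44 in the exact test, and 0.011 in the exact test without the nearly missing region. The call was also lost without siNTC replicate 1 (-0.44, FDR 0.085), siNTC replicate 2 (-0.44, FDR 0.085) or siTAZ #2 replicate 2 (-0.31, FDR 0.19).

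ADAMTS7, its mucin-containing relative on the minus strand at chr15:79051548-79103806, was less well measured. It had 20.4 and 35.1 CPM with siNTC, 35.8 and 33.1 with siTAZ #1, and 52.1 and 54.7 with siTAZ #2. The siNTC libraries were far apart, siTAZ #1 overlapped them, and siTAZ #2 was above the other 4 libraries. ADAMTS7 rose 1.92-fold with siTAZ #2 (log2 fold change 0.94, SE 0.25, FDR 0.040), and the siTAZ #1 value was 0.31 (95% interval from -0.31 to 0.93, FDR 0.43). The rise missed the threshold without siNTC replicate 1 (0.59, FDR 0.096), siTAZ #2 replicate 1 (0.98, FDR 0.13) or siTAZ #2 replicate 2 (0.88, FDR 0.16), and also with a replicate block. Set against siTAZ #2, siTAZ #1 gave -0.63 (95% interval from -1.25 to -0.01, FDR 0.12). This difference passed the threshold without siNTC replicate 1 (-0.62, FDR 0.038), siNTC replicate 2 (-0.62, FDR 0.039) or siTAZ #1 replicate 1 (-0.69, FDR 0.017), and also without the genes of the nearly missing region (-0.65, FDR 0.015). It passed too in DESeq2 (FDR 0.012) and in the fit of the 4 libraries compared (FDR 0.038). The crossed replicate block and the exact test without that region (FDR 0.00045) also gave a call, making 8 of 19 alternatives. Among those without a call were the exact test of all genes (FDR 0.32) and the GC offset described below, with the highest FDR (0.34). The start of ADAMTS7 overlaps MORF4L1 on the opposite strand, the strand setting of the counting is not given in the sources used here, and ADAMTS7 has pseudogene copies on chromosome 15, so its reads could be shared with these.

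The fibrillin-associated pair were lower with siTAZ #1 than with siTAZ #2 in every library. ADAMTS6, on the minus strand at chr5:64444565-64777747, had 16.1 and 15.2 CPM with siNTC, 8.90 and 7.82 with siTAZ #1, and 23.4 and 20.3 with siTAZ #2. The siTAZ #1 libraries were below siNTC and the siTAZ #2 libraries above it. ADAMTS6 fell by 0.91 on the log2 scale with siTAZ #1 (SE 0.17, FDR 0.018), and the siTAZ #2 value was 0.48 (95% interval from 0.06 to 0.90, FDR 0.084). The siRNAs differed by -1.39 (SE 0.17, FDR 0.0034). The siTAZ #1 call was lost in the exact test (-0.92, FDR 0.14), but passed in that test without the nearly missing region (-0.94, FDR 0.00087). It was also lost without siNTC replicate 1 (-0.87, FDR 0.11) or siNTC replicate 2 (-0.96, FDR 0.091). The siTAZ #2 value was 0.48 in each of the 5 alternatives where it passed the threshold, which were the exact test (FDR 0.029), the exact test without the nearly missing region (FDR 0.028), the fit of the 4 libraries compared (FDR 0.038), and the fits without siTAZ #1 replicate 1 (FDR 0.045) or siTAZ #1 replicate 2 (FDR 0.043).

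ADAMTS10, in which mutations cause a form of Weill-Marchesani syndrome, lies on the minus strand at chr19:8645124-8675620. Its counts were 62 and 76 with siNTC, 49 and 109 with siTAZ #1, and 262 and 173 with siTAZ #2, or 3.93 and 4.80, 3.16 and 3.34, and 12.2 and 10.4 CPM. The siTAZ #1 libraries were just below siNTC and the siTAZ #2 libraries far above it. ADAMTS10 rose 2.60-fold with siTAZ #2 (log2 fold change 1.38, SE 0.22, FDR 0.0080), whereas the siTAZ #1 value was -0.42 (95% interval from -0.98 to 0.13, FDR 0.24). The siRNAs differed by -1.80 (SE 0.23, FDR 0.0035). The rise missed the threshold without siNTC replicate 1 (1.22, FDR 0.064) or siTAZ #2 replicate 1 (1.26, FDR 0.054).

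**Figure D2:**
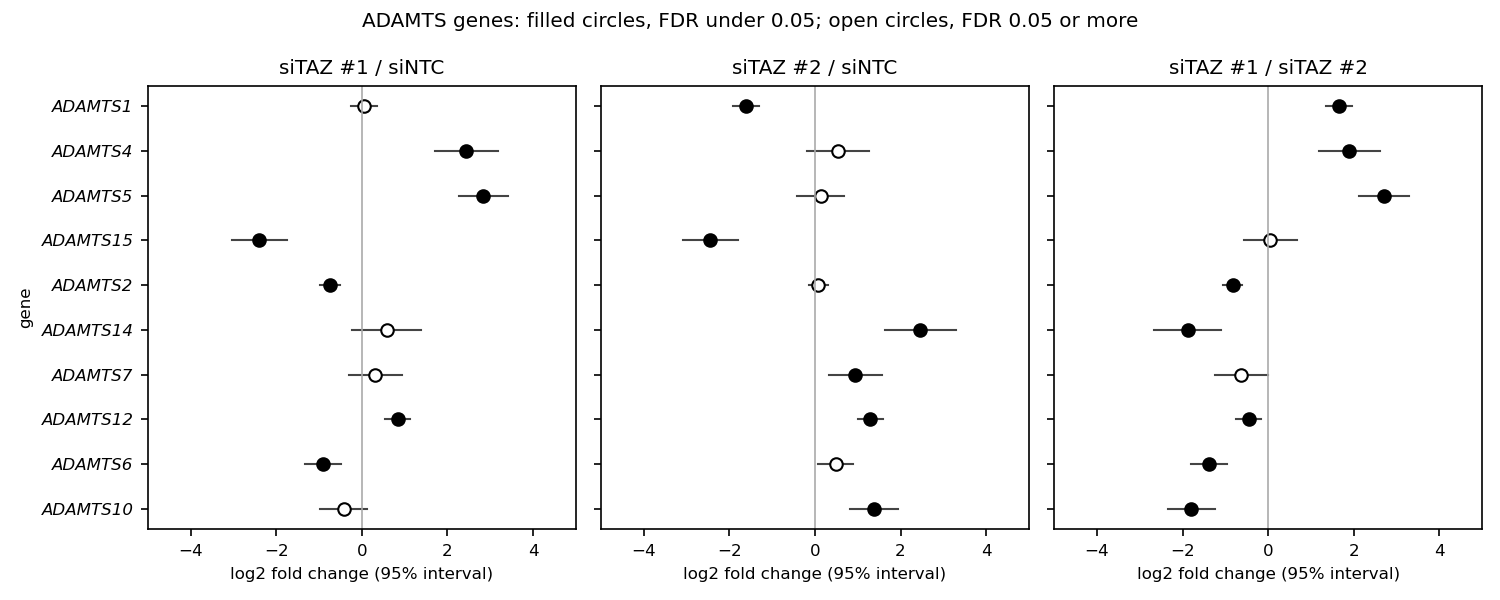
Log2 fold change (horizontal axes) of each ADAMTS gene for siTAZ #1 against siNTC, siTAZ #2 against siNTC and siTAZ #1 against siTAZ #2, with 95% intervals as lines, filled circles for an FDR under 0.05 and open circles otherwise. ADAMTS15 lies at -2.40 and -2.45 in the first 2 panels and near 0 in the last, whereas ADAMTS5 lies at 2.84 in the first panel and 0.13 in the second.

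The 10 ADAMTS genes summed to 457 and 462 CPM with siNTC, 508 and 462 with siTAZ #1, and 370 and 408 with siTAZ #2. Both siTAZ #2 sums lay below the other 4. The makeup of the sum also differed. ADAMTS1 gave 49.1% and 45.3% of it with siNTC, 47.7% and 44.9% with siTAZ #1, and 17.6% and 18.9% with siTAZ #2. ADAMTS5 gave 1.80% and 2.05% with siNTC, 12.5% and 13.7% with siTAZ #1, and 2.05% and 2.89% with siTAZ #2. ADAMTS12 gave 8.12% and 7.73%, 12.8% and 14.2%, and 22% and 23.8% in the same order. The ADAMTS1 share was thus lowest with siTAZ #2, the ADAMTS5 share highest with siTAZ #1, and the ADAMTS12 share lowest with siNTC.

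Levels of different genes were compared per kilobase of the canonical transcript (RPKM). With siNTC the order was ADAMTS1 (mean 41.8 RPKM), ADAMTS2 (14.6), ADAMTS15 (7.60), ADAMTS7 (5.03), ADAMTS12 (4.25), ADAMTS6 (2.14), ADAMTS10 (1.03), ADAMTS5 (0.920), ADAMTS14 (0.501) and ADAMTS4 (0.252), and the libraries of ADAMTS7 and ADAMTS12 and those of ADAMTS10 and ADAMTS5 overlapped. With siTAZ #1, ADAMTS5 was 4th at 6.59 RPKM, behind ADAMTS1 (43.4), ADAMTS2 (8.70) and ADAMTS12 (7.61), and ADAMTS15 was 6th at 1.44, not apart from ADAMTS4 at 1.37. With siTAZ #2, ADAMTS2 (15.5) and ADAMTS1 (13.7) led with overlapping libraries, followed by ADAMTS12 (10.4) and ADAMTS7 (9.67), whose libraries also overlapped. ADAMTS15 was 8th with siTAZ #2 at 1.39 RPKM. The order depends on the length used, since 7266 of the 9777 bases of the ADAMTS4 transcript and 6831 of the 9621 bases of the ADAMTS5 transcript are untranslated. Per kilobase of coding sequence, ADAMTS5 was 2nd with siTAZ #1.

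**Figure D3:**
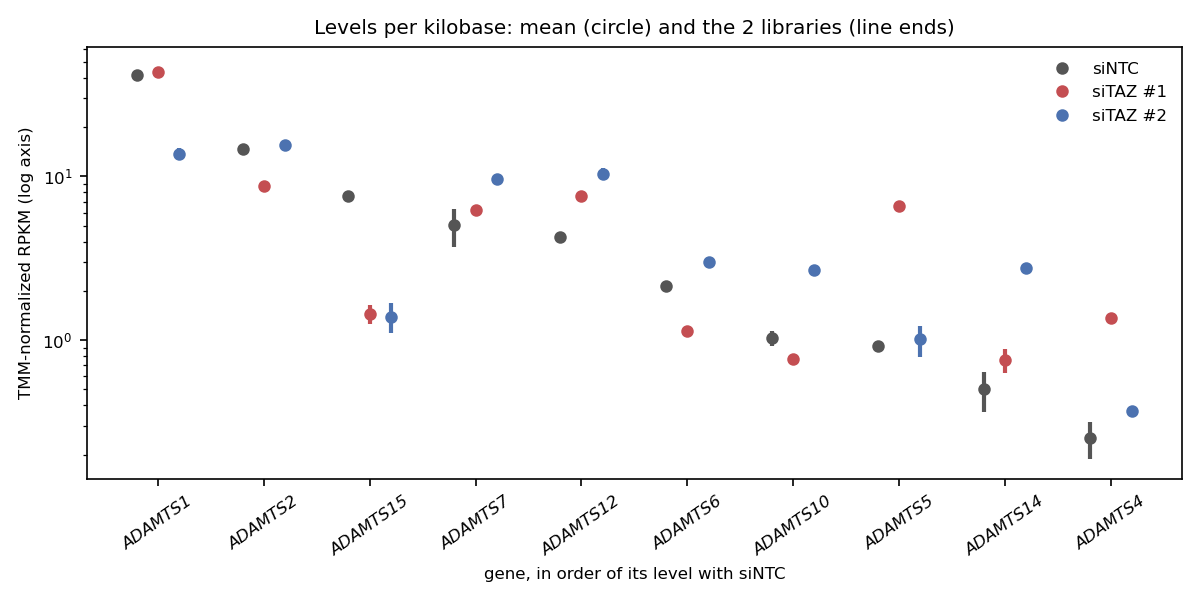
Level per kilobase of the canonical transcript (TMM-normalized RPKM, log axis) of each ADAMTS gene, in the order of its siNTC level, with circles for the mean of 2 libraries and line ends at the libraries. The span from ADAMTS1 to ADAMTS4 with siNTC runs from 41.8 to 0.252 RPKM, and the siTAZ circles of ADAMTS15 lie below its siNTC circle.

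The members that rose with siTAZ #2 included those richest in G and C. ADAMTS7, ADAMTS10 and ADAMTS14 have 65.6%, 65.2% and 62.5% GC in the canonical transcript, and ADAMTS15, which fell, has 60.3%. These 4 lie in the top quintile of the tested genes by GC content, whose median log2 fold change was 0.28 with siTAZ #2, against 0.04, -0.08, -0.12 and -0.02 in the lower quintiles. With siTAZ #1 the medians from the lowest to the top quintile were 0.19, 0.04, -0.07, -0.09 and 0.04. For siTAZ #1 against siTAZ #2 they were 0.15, 0.10, 0.02, -0.07 and -0.26. A fit with a GC offset, added once the values had been seen, gave siTAZ #2 values of 0.51 for ADAMTS7 (FDR 0.17), 0.96 for ADAMTS10 (FDR 0.021), 2.19 for ADAMTS14 (FDR 0.0054) and -2.61 for ADAMTS15 (FDR 0.0018). ADAMTS7 thus lost its call, and the other 3 passed the threshold. ADAMTS12, with 48.0% GC, had 1.41 (FDR 0.00085) with the offset.

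**Figure D4:**
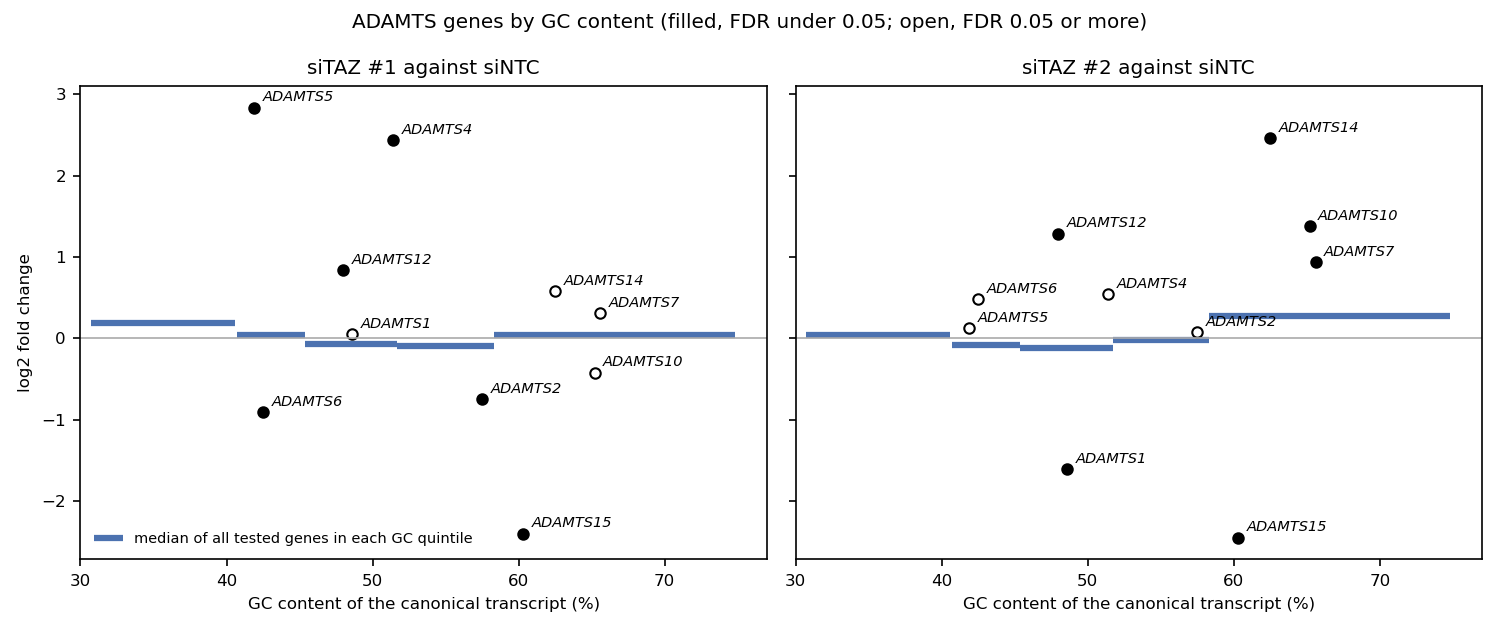
Log2 fold change against siNTC (vertical axis) of each ADAMTS gene by the GC content of its transcript (horizontal axis, %), for siTAZ #1 and siTAZ #2, with bars for the median of all tested genes in each GC quintile. The rightmost bar lies at 0.04 with siTAZ #1 and at 0.28 with siTAZ #2, and ADAMTS14, ADAMTS10 and ADAMTS7 lie above it in the second panel.

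The other ADAMTS proteases were mostly low. Of 9 with an entry, ADAMTS16, ADAMTS18 and ADAMTS20 did not pass the filter on low counts. The 2 calls with siTAZ #1 among the 6 tested were both higher (10.8% of all genes), as was the 1 call with siTAZ #2 (14.1%). ADAMTS19, whose substrates are little known, had 3.80 and 3.53 CPM with siNTC, 13.1 and 13.6 with siTAZ #1, and 8.93 and 9.42 with siTAZ #2. Its libraries did not overlap between groups, and it rose 3.63-fold (FDR 0.0028) and 2.50-fold (FDR 0.0050). ADAMTS3, a procollagen II propeptidase named because it was the other call, rose 3.08-fold with siTAZ #1 (FDR 0.0069), with a siTAZ #2 value of 0.09 on the log2 scale (FDR 0.81). Of the 6 tested ADAMTS-like proteins, which lack a protease domain, THSD4 was the 1 called (9.78% of all genes were lower with siTAZ #1). It fell 2.55-fold with siTAZ #1 (FDR 0.0021), and the siTAZ #2 value was -0.04 on the log2 scale (FDR 0.83).

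Substrates and matrix partners moved in both directions. Of 16 tested, siTAZ #1 lowered 6 (9.78% of all genes) and raised 2 (10.8%), and siTAZ #2 lowered 7 (14.4%) and raised 3 (14.1%). Their median log2 fold changes were -0.19 and -0.10, and those of all genes 0.02 and 0.01. The siTAZ #1 median includes BGN, a gene of the nearly missing region, with 42 counts in siTAZ #1 replicate 2 and 3806 in replicate 1. VCAN (versican), a substrate of the proteoglycanases, had 469 and 449 CPM with siNTC, 424 and 419 with siTAZ #1, and 725 and 720 with siTAZ #2. It rose 1.57-fold with siTAZ #2 (FDR 0.0024), and its siTAZ #1 value was -0.12 on the log2 scale (FDR 0.28). FBN1, the fibrillin of mature microfibrils, rose 1.68-fold with siTAZ #1 (FDR 0.0054) and fell 1.86-fold with siTAZ #2 (FDR 0.0023). FBN2 fell 1.43-fold (FDR 0.014) and 4.83-fold (FDR 0.00037), and the small proteoglycan gene DCN fell 1.58-fold (FDR 0.010) and 3.02-fold (FDR 0.00072). COL1A2, a procollagen chain processed by ADAMTS2 and ADAMTS14, fell 2.01-fold (FDR 0.0071) and 1.71-fold (FDR 0.012), and it too is on the list the study drew from these libraries. COMP was nearly absent, with 3 to 28 counts per library (FDR 0.28 and 0.099).

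Among the regulators, TIMP3, the main tissue inhibitor of ADAMTS4 and ADAMTS5, differed most between the siRNAs. It had 347 and 340 CPM with siNTC, 910 and 864 with siTAZ #1, and 95.1 and 97.1 with siTAZ #2. It rose 2.58-fold with siTAZ #1 (FDR 0.00068) and fell 3.58-fold with siTAZ #2 (FDR 0.00037). TIMP3 was highest in the libraries in which ADAMTS4 and ADAMTS5 were highest. Of 6 tested inhibitors and clearance receptors, siTAZ #1 raised 4 (10.8% of all genes). With siTAZ #2, 3 were raised (14.1%) and 1 lowered (14.4%). LRP1, the endocytic receptor that removes several ADAMTS enzymes, rose 1.28-fold (FDR 0.042) and 1.54-fold (FDR 0.0056), and TIMP2 rose 1.37-fold (FDR 0.012) and 1.61-fold (FDR 0.0025). A2M, the plasma protease inhibitor, rose 5.10-fold (FDR 0.025) and 3.49-fold (FDR 0.042) from 3.49 and 1.58 CPM. TIMP1 and the substrate gene BGN lie on X, in the nearly missing region, and their values with siTAZ #1 are not given. Both count above as tested genes without a call, but the missing counts also widened their siTAZ #2 intervals. TIMP1 had 728 and 715 CPM with siNTC and 1113 and 1370 with siTAZ #2, with an SE of 1.69 on the log2 scale (FDR 0.77). For BGN that SE was 1.62 (FDR 0.91).

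FURIN, which cuts the prodomain from most ADAMTS enzymes, fell 1.36-fold with siTAZ #1 (FDR 0.023) and rose 1.84-fold with siTAZ #2 (FDR 0.0020). Of the 3 convertases tested, siTAZ #1 lowered FURIN and raised PCSK7 (1.42-fold, FDR 0.030), and FURIN was the 1 called with siTAZ #2. Of all genes, siTAZ #1 lowered 9.78% and raised 10.8%, and siTAZ #2 raised 14.1%. Glycosylation of thrombospondin repeats is a step needed for secretion of many ADAMTS proteins. Of the 4 enzymes listed for it, 3 rose with siTAZ #1 (10.8% of all genes) and 2 with siTAZ #2 (14.1%). POFUT2, which adds O-fucose to these repeats, rose 1.41-fold (FDR 0.011) and 1.61-fold (FDR 0.0028), and DPY19L1, a C-mannosyltransferase, rose 2.91-fold (FDR 0.0046) and 2.26-fold (FDR 0.0072). BMP1, which removes the carboxy-terminal procollagen propeptide, had 131 and 117 CPM with siNTC, 143 and 121 with siTAZ #1, and 210 and 213 with siTAZ #2. It rose 1.70-fold with siTAZ #2 (FDR 0.0054) and its siTAZ #1 value was 0.09 on the log2 scale (FDR 0.62). With siTAZ #2, ADAMTS14 at one end of the propeptide processing and BMP1 at the other were thus both higher, while ADAMTS2 was not called.

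**Figure D5:**
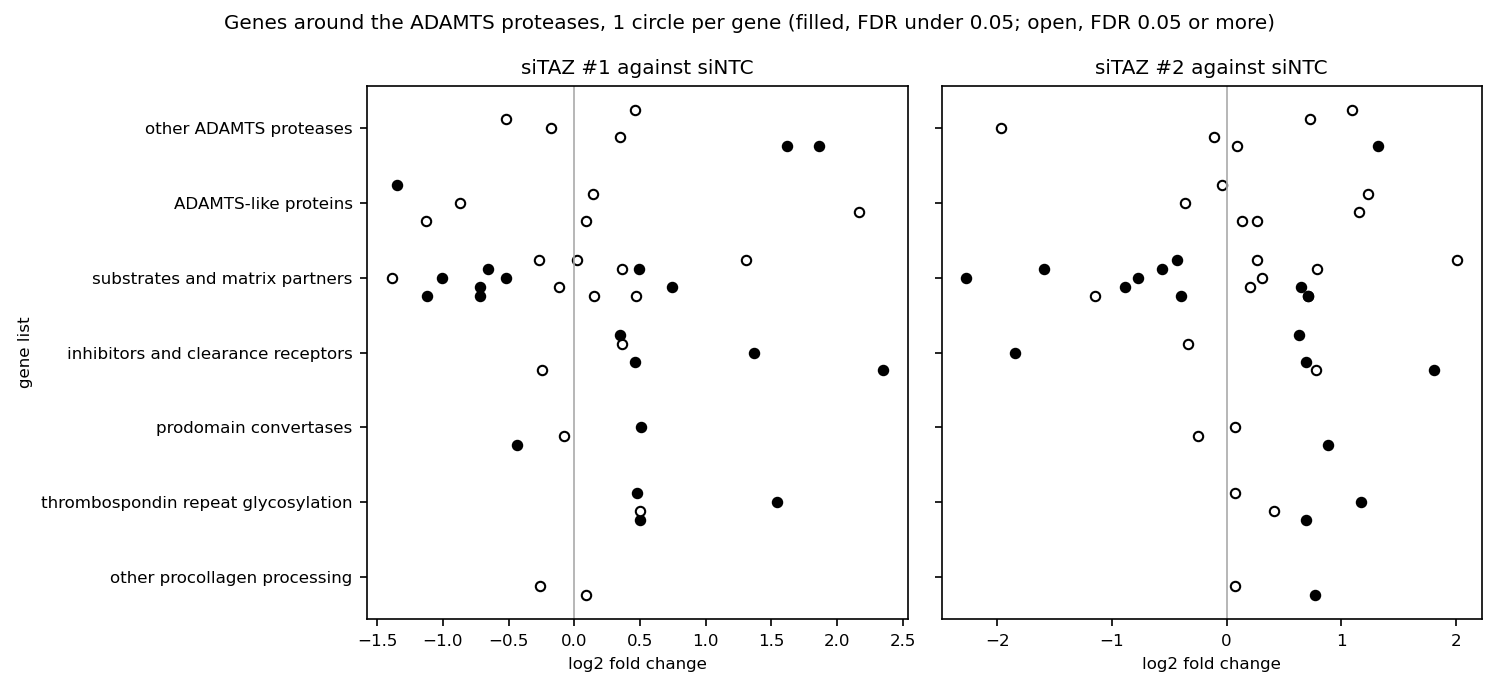
Log2 fold change against siNTC (horizontal axes) of the tested genes around the ADAMTS proteases, by list, for siTAZ #1 and siTAZ #2, with 1 circle per gene, filled where the FDR was under 0.05. The 4 glycosylation genes lie to the right of 0 in both panels, and the substrates lie on both sides of it. TIMP1 and BGN, of the nearly missing region, are drawn as open circles.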

How the data were processed

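RNA was sequenced from HFL-1 cells transfected with siNTC, siTAZ #1 or siTAZ #2, in 2 libraries per group. The deposited table holds unnormalized counts for each gene symbol. The authors aligned with TMAP (hg19) and counted with HTSeq, version 0.6.1 in the submitters' processing notes. The counting mode, the strand setting and the release of the annotation are not given in the sources used here, so reads of genes that overlap on opposite strands cannot be told apart. The 13 entries with a date in place of a symbol (0.0458% to 0.0506% of the counts) were left out, and 23355 entries remained. The study names edgeR but not which of its tests.

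After filterByExpr and TMM, the 6 libraries were fitted once with edgeR 4.0.16 (R 4.3.3) and compared by its quasi-likelihood test, and p-values were adjusted by Benjamini-Hochberg over 14053 genes. All 10 members passed the filter. SE and 95% intervals come from the fitted log2 fold change and its F statistic. A permutation of 2 libraries against 2 cannot go below p = 0.333. The test was also run on simulated counts. These had no nearly missing region, so they cannot show how that region affects the calls. Positions, GC content and length are those of canonical GENCODE transcripts on GRCh37, found for 19880 symbols, 1905 of them through an older symbol. GC content was known for 94.6% of the tested genes.

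The members, gene lists and tests were chosen with earlier results of these data known. The named genes are the members, WWTR1, VCAN, COMP, FBN1, TIMP3, LRP1, FURIN, POFUT2, BMP1 and up to 3 genes per list that changed the same way with both siRNAs. ADAMTS3 and THSD4 were named after their values were seen, as were TIMP1, BGN and PCSK7. Alternatives were DESeq2 1.42.0, the exact test of edgeR, scaling by RLE, by upper quartile or by library total, filtering nothing or more strictly (mean count 50), fits of only the 4 libraries compared, a replicate block, each library left out in turn, and a table without the genes that follow RANGAP1 up to Y. A GC offset, the exact test without those genes and a crossed block were added after seeing the data.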

Additional observations from a re-analysis of the deposited data

Results flagged for a closer look

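ADAMTS6 and ADAMTS10 were flagged by a rule. It asked for libraries of the siRNAs on opposite sides of both siNTC libraries and for an FDR under 0.05 between the siRNAs. The positions and FDRs below are therefore those the rule selected on. The share of all genes that meet the rule was not counted. For ADAMTS6 the log2 difference between siTAZ #1 and siTAZ #2 was -1.39 (FDR 0.0034 in edgeR), with both siTAZ #1 libraries below and both siTAZ #2 libraries above siNTC. For ADAMTS10 it was -1.80 (FDR 0.0035), with the libraries in the same positions. For ADAMTS6 the fall with siTAZ #1 passed the threshold and the siTAZ #2 value did not, and for ADAMTS10 the siTAZ #2 rise passed and the siTAZ #1 value did not. Groups of 2 libraries are too small to look for a single outlying library.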

How the results depend on the processing

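Of the counts of changed members recomputed under the alternatives, 103 stayed within 1.5 times the main count or equal to it, and 7 were smaller. With siTAZ #1 the 3 lower members became 1 in the exact test of edgeR and 1 without either siNTC library, but were 3 in the exact test without the genes of the nearly missing region. With siTAZ #2 the 4 higher members became 2 without siNTC replicate 1 or siTAZ #2 replicate 1. Between the siRNAs the 5 lower members became 3 in the exact test, 6 in that test without the region, and 3 without siTAZ #2 replicate 2. Leaving out 1 library at a time gave 1 to 3 lower and 2 to 3 higher members with siTAZ #1, 2 lower and 2 to 5 higher with siTAZ #2, and 3 to 6 lower and 2 to 3 higher between the siRNAs. Of the single log2 fold changes, 501 kept their direction and their side of the threshold, 29 lost it, 13 gained it and 7 changed sign. All 7 belonged to values that were not called. Leaving out a library gave ADAMTS1 a siTAZ #1 value from -0.066 (siTAZ #1 replicate 1 omitted) to 0.161, negative also when siNTC replicate 2 was omitted (-0.006). The siTAZ #1 value of ADAMTS7 ran from -0.037 (siNTC replicate 1 omitted) to 0.745. With siTAZ #2 replicate 2 omitted, ADAMTS2 and ADAMTS5 turned negative with siTAZ #2, their ranges being -0.029 to 0.163 and -0.250 to 0.409. The ADAMTS15 difference between the siRNAs ran from -0.212 (the same library omitted) to 0.397, and was -0.164 with siTAZ #1 replicate 1 omitted. The cause of these changes was not tested.

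The calls of ADAMTS4, ADAMTS5 and ADAMTS15 with siTAZ #1 and of ADAMTS1, ADAMTS12, ADAMTS14 and ADAMTS15 with siTAZ #2 passed the threshold under each of the 18 alternatives run. Replicate numbers are shared by the groups in the labels. Over 11533 genes, deviations of same-numbered libraries correlated at -0.0101 for siNTC and siTAZ #1 and at 0.0195 for siNTC and siTAZ #2. Equal numbers thus showed no shared deviation with siNTC. For siTAZ #1 and siTAZ #2 the correlation was -0.31, so replicate 1 of one siRNA deviated more like replicate 2 of the other. The source of that value was not tested. With the replicate block, 3 members were lower and 3 higher with siTAZ #1, 2 lower and 3 higher with siTAZ #2 (ADAMTS7 lost its call, 0.97, FDR 0.060), and 4 lower and 3 higher between the siRNAs (ADAMTS12 lost its call, -0.45, FDR 0.076). The crossed block gave 5 lower and 3 higher between the siRNAs. The number of all genes called depends on the setting: with siTAZ #1 it was 1374 lower and 1515 higher, but 492 and 569 in the exact test, 2160 and 2237 in that test without the region, and 277 and 279 without siNTC replicate 2. With siTAZ #2 it was 2021 and 1983, but 3165 and 3259 in the exact test, 3033 and 3137 in that test without the region, and 714 and 614 without siNTC replicate 2. Depth limits ADAMTS4 and ADAMTS14 most, with 29 to 56 counts in the siNTC libraries.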
